A study of Rattus norvegicus with 4 samples.

Results

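The 39 genes described here copy DNA or open S phase, and they were chosen as a named list: 4 E2F transcription factors and 35 genes for origin licensing, the replication fork, deoxynucleotides and chromatin copying. All 39 were found by symbol, once each, among 18699 genes of the expression table, and all 39 passed the filter on low counts. RNA was sequenced from ventricular myocytes of Sprague Dawley rats 1 to 3 days old, wild type, in primary culture. Of 4 libraries, 2 came from cells given 1 µM carfilzomib, an irreversible inhibitor of the proteasome, for 24 h, and 2 from cells given vehicle. All 4 grew in medium with 15% fetal bovine serum and 0.1 mM bromodeoxyuridine, a thymidine analogue that cells build into DNA when they replicate it and that was added to hold back the growth of other cells. The labels do not say how the 2 libraries of a group relate, as separate animals, cultures or dishes, and the p-values therefore reflect the spread between these libraries alone, which may be technical. The carfilzomib libraries held 18884333 and 18655450 estimated counts and the vehicle libraries 18757722 and 18736027.

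Replication begins with licensing. The origin recognition complex, with CDC6 and CDT1, loads rings of MCM proteins onto DNA, and CDC45 and the GINS complex then turn each ring into a moving helicase. Behind it, primase and polymerase alpha start new strands, the clamp PCNA and its loader RFC hold the other polymerases in place, and FEN1 and LIG1 join the fragments of the lagging strand. Most of these genes are classical targets of E2F factors, which are held silent by the RB family in resting cells and released when cyclin-dependent kinases act on it. Cardiomyocytes of newborn rodents are leaving the cell cycle, while fibroblasts and other cells of the same culture can go on dividing.

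The promoters are shown first because the members moved together and because E2F factors are themselves members. RefSeq windows of 300 bases (build GRCr8, 250 before to 50 after the start site) were matched by gene ID for 31 of the 39 genes. They were searched on both strands for 3 forms of the E2F motif, TTTCCCGC, TTTGGCGC and TTCCCGCC, the first and last of which can overlap and were then taken as 1 stretch. At least 1 form was found in 16 of the 31 promoters, 51.6%, and in 642 of 11307 promoters of tested genes, 5.68%. The CHR motif of mitotic genes, TTTGAA, was found in 2 of the 31, 6.45%, against 11.7% of the promoters of tested genes. A CCAAT box was found in 20 of the 31, 64.5%, against 37.5%. A match describes the letters in a window and is not a bound site. The stretches below are those of the member with the largest fall in each role, among members with an E2F match before the start site. Each has 90 bases, 5′ to 3′ on the gene's strand, with the E2F motif in capitals. For Mcm5 the stretch is chr19:13488723-13488812 on the plus strand, and its motif ends at the last base before the start site. For Gins3 it is chr19:9434680-9434769 on the minus strand, for Rfc4 chr11:91254183-91254272 on the plus strand, and for Pola1 chrX:62342480-62342569 on the minus strand. For Rrm1 it is chr1:166235673-166235762 on the plus strand and for Chaf1a chr9:961135-961224 on the plus strand.
Mcm5: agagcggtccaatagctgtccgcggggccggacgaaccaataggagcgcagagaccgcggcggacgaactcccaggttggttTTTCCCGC
Gins3: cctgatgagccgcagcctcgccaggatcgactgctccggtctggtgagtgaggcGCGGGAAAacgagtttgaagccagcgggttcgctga
Rfc4: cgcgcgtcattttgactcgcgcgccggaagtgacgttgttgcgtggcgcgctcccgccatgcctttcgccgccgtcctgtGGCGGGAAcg
Pola1: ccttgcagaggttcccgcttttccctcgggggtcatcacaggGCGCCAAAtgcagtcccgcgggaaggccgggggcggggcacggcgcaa
Rrm1: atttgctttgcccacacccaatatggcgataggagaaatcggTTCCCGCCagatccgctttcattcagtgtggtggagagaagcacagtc
Chaf1a: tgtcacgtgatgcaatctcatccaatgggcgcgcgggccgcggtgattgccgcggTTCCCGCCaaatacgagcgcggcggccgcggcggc

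These 6 stretches carry the motif in either orientation and at distances from the start site that differ, next to it in Mcm5 and 172 bases before it in Pola1. Mcm5 also has a second match, 209 bases before the start site. The 16 members with a match had a median log2 fold change of -0.76 and the 15 without one a median of -0.87. Among these 31 the median fall was thus no larger where these letters were present. Members without a window, E2f1, E2f2, E2f8, Orc1, Cdc6, Mcm4, Gins4 and Rrm2, are in neither median. E2f8 and E2f1 had the largest falls of the 39. Only 3 exact forms were searched, so a member without a match may still hold another form of the motif. Of 17 promoters of mitosis genes 0 held an E2F form and 12 held the CHR motif, 70.6%. Among other genes of the fork and origin, outside the 39, 12 of 36 held an E2F form, 33.3%.

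**Figure D1:**
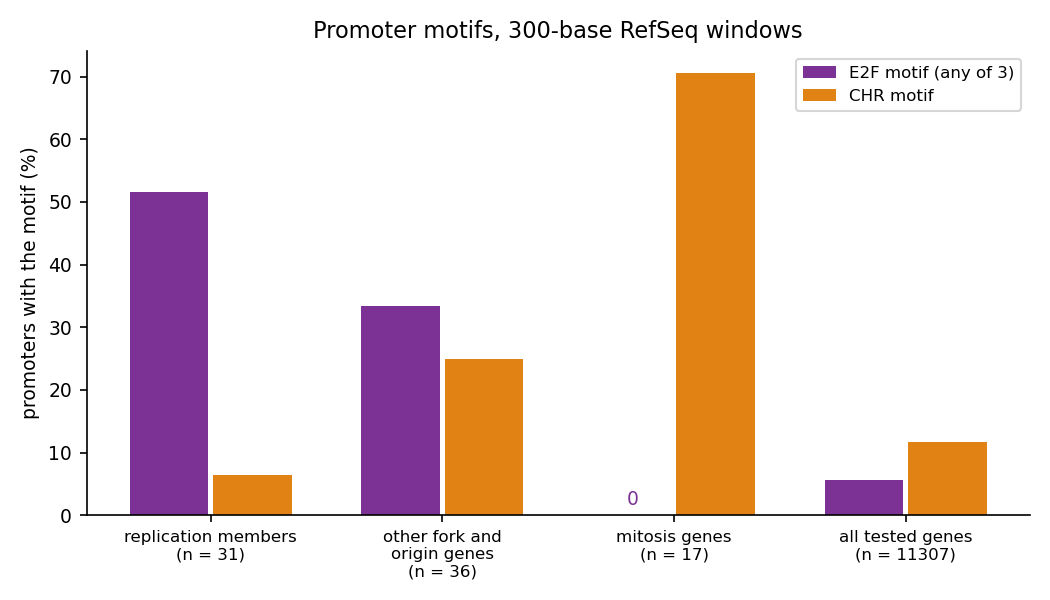
Share of 300-base RefSeq promoters, in percent, that hold any of 3 E2F motif forms (purple) or the CHR motif (orange), in 4 sets of genes whose sizes stand under the bars. The E2F bar is tallest for the replication members, at 51.6%, and 0 for the mitosis genes, whose CHR bar reaches 70.6%.

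The RNA of 38 of the 39 replication genes fell with carfilzomib, and that of 0 rose. Over all 14519 genes tested, 30.1% were called lower and 30.6% higher. The median log2 fold change of the 39 was -0.84, against 0.00 over all tested genes, where a negative value means less RNA with carfilzomib. In all 38 both carfilzomib libraries lay below both vehicle libraries, as they did in 40.0% of tested genes. A fall of at least 2-fold was reached by 12 members, against 7.38% of tested genes, while 24 fell by between 0.5 and 1 on the log2 scale and 2 by less. The exception was Prim1, the catalytic subunit of primase. Levels are given as CPM, counts divided by the library size after TMM normalisation and scaled to the usual CPM unit, and a gene was called at a Benjamini-Hochberg adjusted p under 0.05 in edgeR's quasi-likelihood test across all genes. Added over the 39 genes, the members made up 1218 and 1222 CPM in the carfilzomib libraries and 2188 and 2158 CPM in the vehicle libraries, 1.78-fold less with carfilzomib. In such bulk samples fewer cells of a type and less RNA per cell cannot be told apart. The authors' deposited table lists 36 of the members, all 36 lower, with log2 fold changes from -1.89 to -0.38, and not Tyms, Gins3 or Prim1. Counts were whole in every library for 30 members, while those of E2f2, E2f8, Orc1, Cdc6, Gins2, Gins3, Rfc5, Prim1 and Chaf1b carried decimals and may include reads shared with another gene.

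**Figure D2:**
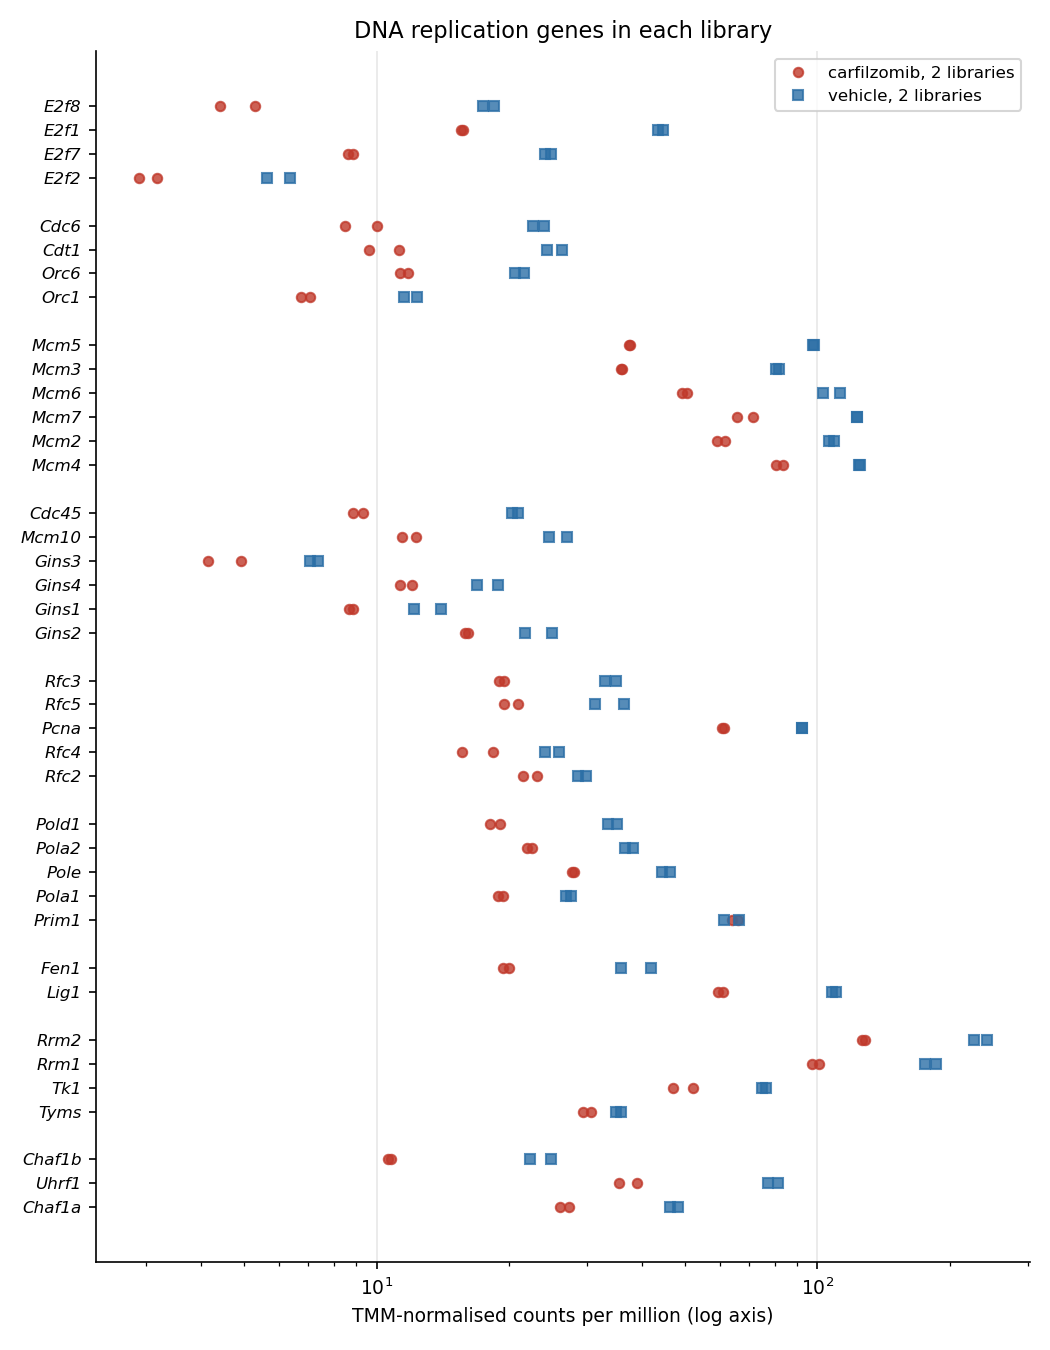
TMM-normalised CPM on a log axis for the 39 replication genes, grouped by role, with 1 point for each library: carfilzomib as red circles and vehicle as blue squares, 2 libraries each. In 38 rows both red circles lie left of both blue squares, and only in the row of Prim1 do the groups overlap.

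Markers of the cell types in the culture moved in the same libraries. For comparison, 30.1% of all tested genes were called lower and 30.6% higher. Cardiomyocyte markers were abundant, which fits the labelled cell type, and fibroblast markers were abundant too. Of 12 cardiomyocyte markers 11 fell and 1, Nppa, did not pass. Their log2 fold changes ran from -3.79 for Myh6 to 0.00 for Nppa. Their summed level was 11081 and 10581 CPM with carfilzomib and 34370 and 34360 CPM with vehicle. The sum leans on its most abundant genes. Myh6 alone was at 714 and 709 CPM with carfilzomib and 10018 and 9621 CPM with vehicle. Tnnt2, also abundant, had a log2 fold change of -0.36. All 12 fibroblast markers fell, with a sum of 19150 and 18507 CPM with carfilzomib and 33299 and 33687 CPM with vehicle. Their log2 fold changes ran from -2.00 to -0.33. Col1a1 alone was at 11155 and 10590 CPM with carfilzomib and 19415 and 19926 CPM with vehicle. Nppa, Tnnt2 and Col1a1 were chosen after their values were seen. All 8 smooth muscle and pericyte markers fell, with a sum of 1511 and 1477 CPM with carfilzomib and 4090 and 4249 CPM with vehicle. Of 8 macrophage markers 5 fell, 1 rose and 2, Cd163 and C1qa, were too low to test. Cd163 had 0 counts in each carfilzomib library and 1 count in each vehicle library. The macrophage sum was 53.0 and 47.4 CPM with carfilzomib and 89.0 and 90.6 CPM with vehicle. Of 8 endothelial markers 2 fell and 2 rose, and their sum was 95.1 and 92.0 CPM with carfilzomib and 88.0 and 88.6 CPM with vehicle. The part that the makeup of the culture played in the fall of the replication genes was not tested.

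The E2F factors had the lowest median log2 fold change of any role, -1.49, with values from -1.89 to -0.98. E2f8, an atypical E2F that represses E2F targets late in S phase, was at 4.40 and 5.30 CPM in the carfilzomib libraries and 17.4 and 18.5 CPM in the vehicle libraries. Both treated libraries lay far below the vehicle libraries, and its fall of 3.69-fold was the largest among the 39 (log2 scale, -1.89 ± 0.12 SE, edgeR adjusted p 5.14e-09). E2f7, the other atypical repressor, was at 8.60 and 8.85 CPM with carfilzomib and 24.9 and 24.1 CPM with vehicle, a fall of 2.81-fold. E2f1, an activator that drives entry into S phase, was at 15.6 and 15.7 CPM with carfilzomib and 44.5 and 43.5 CPM with vehicle. Its libraries within a group were nearly equal, and it fell by 1.49 ± 0.07 (SE) on the log2 scale (edgeR adjusted p 1.1e-10). E2f2, a second activator, was the lowest of all members, at 2.88 and 3.18 CPM with carfilzomib and 6.36 and 5.63 CPM with vehicle. It rested on 55 and 60 counts with carfilzomib and 118 and 104 counts with vehicle, and its log2 fold change of -0.98 ± 0.17 had the widest standard error of the 39. The 4 members hold activators and repressors alike, and all 4 fell. The 4 other E2F genes of the table, E2f3 to E2f6, did not share the size of those falls. E2f6, a repressor, rose by 0.22 ± 0.06 (SE) on the log2 scale (edgeR adjusted p 0.00298), a call lost without carfilzomib replicate 1 at 0.18 (adjusted p 0.0555). E2f3, an activator, was not called at 0.05, with a 95% interval from -0.18 to 0.28. E2f4 and E2f5, which bind pocket proteins, were at -0.25 and -0.28 (edgeR adjusted p 0.0420 and 0.0329). Both calls were lost under DESeq2, with library size alone and without vehicle replicate 2 or either carfilzomib library, and that of E2f4 under limma-voom too. Without vehicle replicate 2 they were at -0.083 and -0.17, and without vehicle replicate 1 E2f4 was at -0.39.

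**Figure D3:**
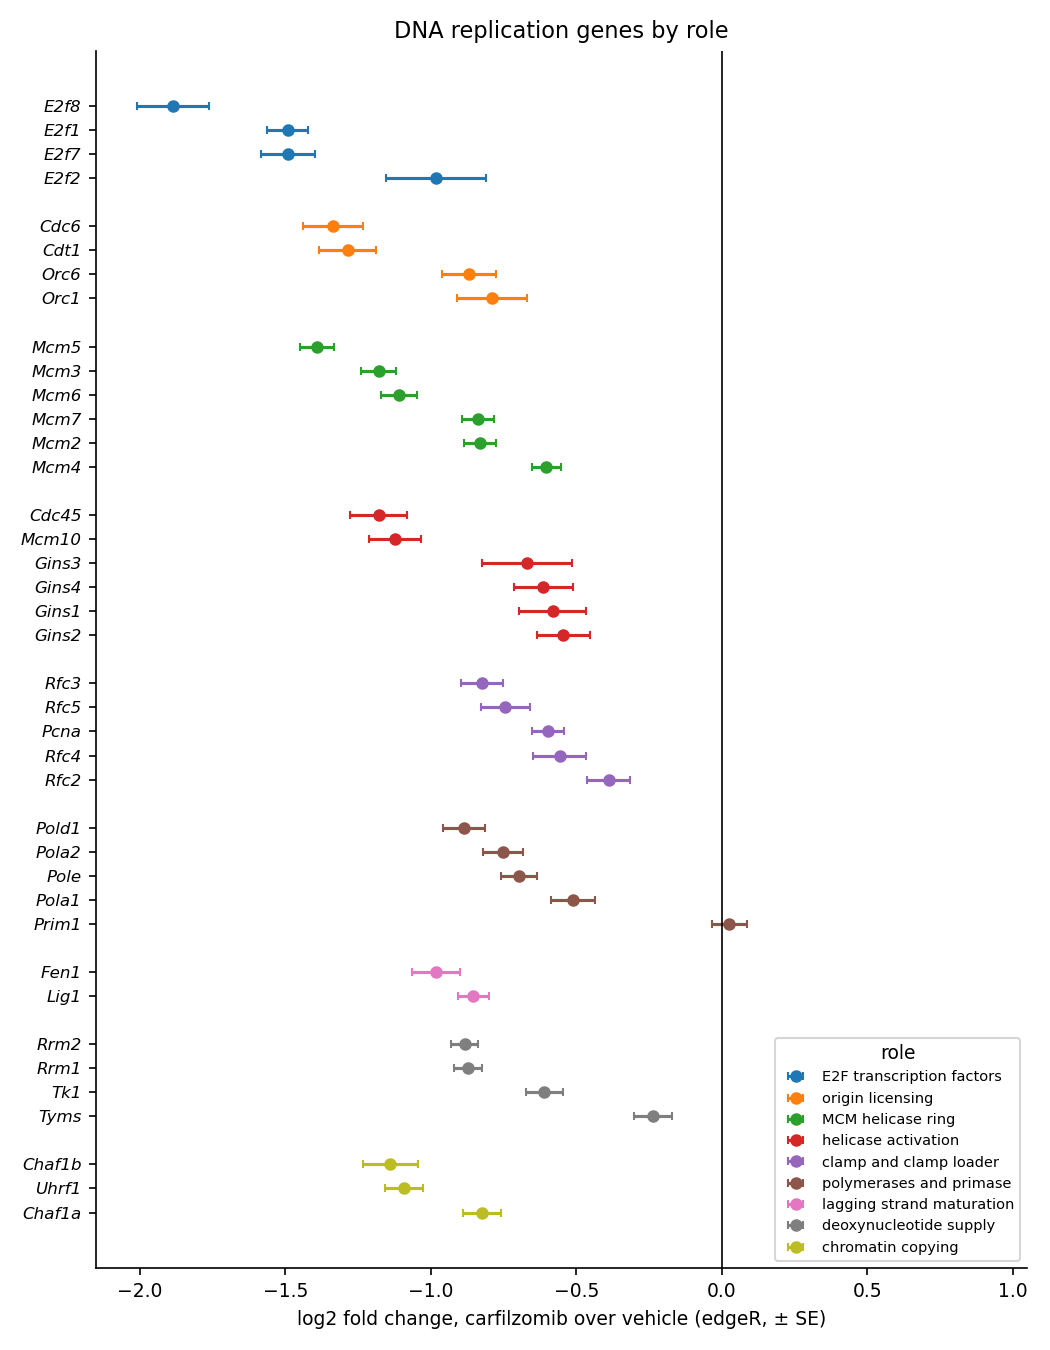
Log2 fold change, carfilzomib over vehicle, with its standard error from edgeR, for the 39 replication genes grouped and coloured by role. E2f8 lies farthest left at -1.89, and Prim1 alone lies at 0.03 with an error bar across 0.

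All 4 licensing genes fell, and the 2 loading factors fell more than the 2 subunits of the origin recognition complex. Cdc6, an ATPase that helps to load the MCM ring, was at 10.01 and 8.48 CPM with carfilzomib and 22.7 and 24.0 CPM with vehicle. Cdt1, which brings the MCM ring to the origin, was at 9.59 and 11.2 CPM with carfilzomib and 24.4 and 26.4 CPM with vehicle. Both were below the vehicle libraries by more than 2-fold, with log2 fold changes of -1.34 ± 0.10 and -1.29 ± 0.10 (SE). CDT1 protein is known to be destroyed by the proteasome in S phase, and the data here are RNA levels alone. Orc1, the ATPase subunit that comes and goes with the cell cycle, was at 7.08 and 6.73 CPM with carfilzomib and 11.5 and 12.3 CPM with vehicle, a log2 fold change of -0.79 ± 0.12 (SE). Orc6, its smallest subunit, was at 11.3 and 11.8 CPM with carfilzomib and 20.6 and 21.5 CPM with vehicle, with -0.87 ± 0.09 (SE). The groups of both subunits stood apart.

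None of the other 4 subunits of the origin recognition complex, Orc2 to Orc5, was called lower. These 4 were chosen after their values were seen. Orc4 was at 47.5 and 52.8 CPM with carfilzomib and 33.4 and 31.3 CPM with vehicle, and rose by 0.63 ± 0.07 (SE) on the log2 scale, with an edgeR adjusted p of 1.4e-06. The ratio of Orc4 to Orc1 counts was 6.71 and 7.85 in the carfilzomib libraries and 2.90 and 2.54 in the vehicle libraries. Orc4 rose and Orc1 fell in these same libraries, so the gap between these ratios follows from the choice of pair. Orc3 and Orc5 rose by 0.20 ± 0.07 and 0.22 ± 0.07 (SE), with edgeR adjusted p of 0.0216 and 0.0181. Both calls were lost under DESeq2 and when vehicle replicate 2 or either carfilzomib library was left out, and their adjusted p over 11 alternatives ranged from 0.00903 to 0.213 and from 0.00789 to 0.201. Without vehicle replicate 2 their log2 fold changes were 0.15 and 0.17. Orc2 did not pass, at -0.01 with a 95% interval from -0.16 to 0.14.

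The 6 subunits of the MCM ring, which work as a hexamer with 1 copy of each, all fell, but by unequal amounts. Mcm5 was at 37.4 and 37.5 CPM with carfilzomib and 98.4 and 97.9 CPM with vehicle, down by 1.39 ± 0.06 (SE) on the log2 scale. Its edgeR adjusted p, 2.95e-11, was the smallest of the 39. Mcm3 was at 36.0 and 35.9 CPM with carfilzomib and 82.0 and 80.7 CPM with vehicle, a log2 fold change of -1.18 ± 0.06 (SE). Mcm6 was at 49.2 and 50.5 CPM with carfilzomib and 112 and 103 CPM with vehicle, with -1.11 ± 0.06 (SE). The replicates of these 3 subunits lay close together and the groups far apart. Mcm7 was at 71.5 and 65.9 CPM with carfilzomib and 123 CPM in both vehicle libraries, and Mcm2 at 59.3 and 61.8 CPM with carfilzomib and 109 and 106 CPM with vehicle. These 2 had smaller falls, of -0.84 and -0.83 on the log2 scale with a standard error of 0.05 each. Mcm4 fell least, with 80.5 and 83.5 CPM with carfilzomib and 125 and 124 CPM with vehicle, a log2 fold change of -0.60 ± 0.05 (SE). The ratio of Mcm5 to Mcm4 counts was 0.464 and 0.449 in the carfilzomib libraries and 0.787 and 0.789 in the vehicle libraries. The 2 groups of ratios did not overlap, and a two-sided exact permutation test of the log ratio gave p = 0.333, the smallest that 2 libraries against 2 can give. The pair holds the subunits that fell most and least in these same libraries. A gap between the groups of ratios therefore follows from that choice, and no conclusion is drawn from it.

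Compared per length, in the deposited FPKM, which divides fragments by transcript length and library size, the MCM subunits were within a narrow range of levels. Mcm7 was highest, at 31.5 and 29.1 FPKM with carfilzomib and 53.1 and 52.9 FPKM with vehicle. Mcm3 was lowest, at 12.6 FPKM in both carfilzomib libraries and 28.1 and 27.6 FPKM in the vehicle libraries. The highest subunit stood above the lowest by 2.50 and 2.32 times in the carfilzomib libraries and by 1.89 and 1.92 times in the vehicle libraries. With vehicle, Mcm5, at 32.4 and 32.7 FPKM, and Mcm2, at 33.9 and 33.0 FPKM, stood side by side. With carfilzomib Mcm5, at 12.7 FPKM in both libraries, stood beside Mcm3, and Mcm2 stayed above both at 18.8 and 19.6 FPKM.

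**Figure D4:**
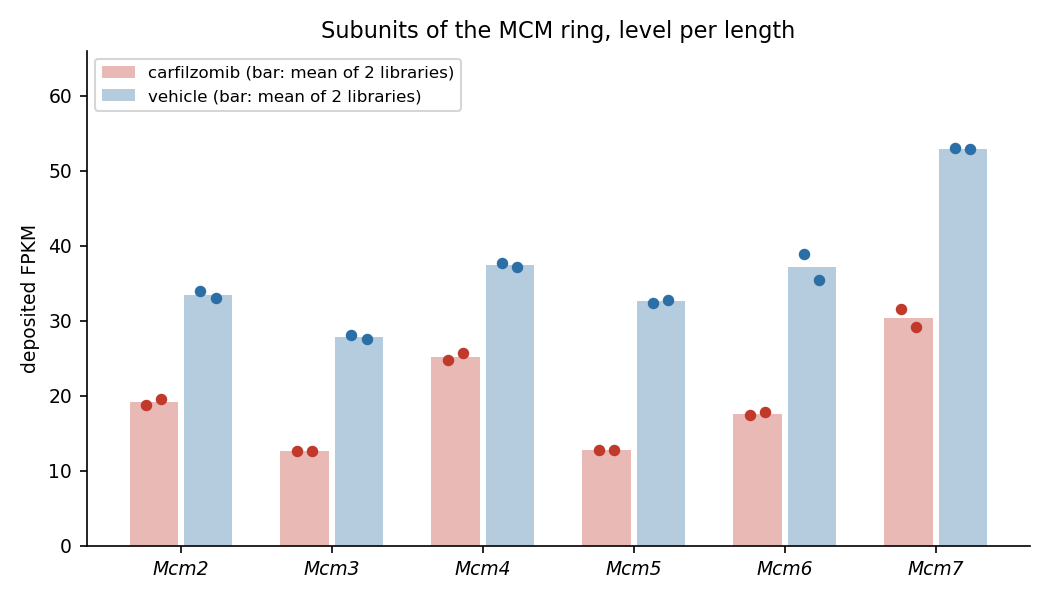
Deposited FPKM of the 6 MCM ring subunits, with carfilzomib (red) left of vehicle (blue); points are the 2 libraries of each group and bars their mean, from 0. Every red pair lies below its blue pair, and Mcm3 and Mcm5 are the lowest with carfilzomib, near 12.6 FPKM.

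The 6 genes that turn a loaded ring into an active helicase all fell, in 2 tiers. Cdc45, which binds the ring, was at 9.33 and 8.85 CPM with carfilzomib and 20.3 and 20.9 CPM with vehicle, a log2 fold change of -1.18 ± 0.10 (SE). Mcm10, which is needed to start unwinding, was at 12.3 and 11.4 CPM with carfilzomib and 24.7 and 27.0 CPM with vehicle, with -1.12 ± 0.09 (SE). Both fell more than 2-fold. The 4 GINS subunits, Gins1 to Gins4, form 1 complex, and their falls were close to each other, from -0.67 to -0.55 on the log2 scale with standard errors from 0.09 to 0.15. Gins3 was among the lowest members, at 4.93 and 4.13 CPM with carfilzomib and 7.06 and 7.36 CPM with vehicle, with an edgeR adjusted p of 0.00156. Gins4 was at 12.1 and 11.3 CPM with carfilzomib and 18.9 and 16.9 CPM with vehicle. Gins2 fell by 0.55 in counts but by 0.80 in FPKM, and Orc1 by 0.79 in counts and 1.04 in FPKM. These were the 2 members in which the log2 scales differed most, and both have counts with decimals, which are less certain than whole ones.

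The sliding clamp and the 4 small subunits of its loader fell, by 0.39 to 0.82 on the log2 scale. Pcna, the clamp and a common marker of cycling cells, was at 61.5 and 60.7 CPM with carfilzomib and 92.4 and 92.6 CPM with vehicle. The libraries of a group were nearly equal, and the fall was 1.51-fold (log2 fold change -0.60 ± 0.06 SE, edgeR adjusted p 2.32e-07). Of the 4 small loader subunits Rfc3 fell most, by 0.82, and Rfc2 least, by 0.39 on the log2 scale. Rfc3 was at 19.5 and 18.9 CPM with carfilzomib and 33.0 and 35.02 CPM with vehicle. Rfc2 was at 21.5 and 23.2 CPM with carfilzomib and 28.7 and 29.8 CPM with vehicle. Rfc4 and Rfc5 lay between them, at -0.56 ± 0.09 and -0.74 ± 0.08 (SE). Rfc1, the large subunit of the loader, not among the 39 and chosen after its values were seen, was at 62.2 and 61.3 CPM with carfilzomib and 64.3 and 62.6 CPM with vehicle. It was not called, at -0.04 with a 95% interval from -0.16 to 0.09 (edgeR adjusted p 0.586).

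Of the 5 polymerase and primase genes 4 fell. Pold1, the catalytic subunit of polymerase delta, which copies the lagging strand, was at 19.03 and 18.1 CPM with carfilzomib and 35.1 and 33.5 CPM with vehicle. Pole, the catalytic subunit of polymerase epsilon of the leading strand, was at 28.1 and 27.8 CPM with carfilzomib and 46.3 and 44.3 CPM with vehicle. Their log2 fold changes were -0.89 ± 0.07 and -0.70 ± 0.06 (SE). Pola1 and Pola2, of the polymerase alpha that extends each primer, fell by 0.51 and 0.75 on the log2 scale. Prim1, which makes the RNA primer in the same complex, was at 63.9 and 66.2 CPM with carfilzomib and 66.4 and 61.4 CPM with vehicle. Its groups overlapped, and the log2 fold change, 0.03 ± 0.06 (SE), had a 95% interval from -0.11 to 0.16 (edgeR adjusted p 0.737). No other member's estimate lies within that interval. The sign for Prim1 turned to -0.03 without vehicle replicate 2, and its adjusted p ranged from 0.290 to 0.970 over 11 alternatives.

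Per length Prim1 was the highest of the 4 subunits of the polymerase alpha and primase complex. It was at 40.9 and 42.4 FPKM with carfilzomib and 41.6 and 38.3 FPKM with vehicle, while Pola1 was at 3.80 and 3.70 FPKM with carfilzomib and 5.31 and 5.15 FPKM with vehicle. Pola2 was between them, at 10.24 and 10.01 FPKM with carfilzomib and 16.3 and 16.99 FPKM with vehicle. The counts of Prim1 are among those with decimals, and the part of shared reads in the level of Prim1 was not tested. Prim2, the regulatory subunit of primase and not among the 39, was chosen after its values were seen. It was at 19.1 and 19.7 CPM with carfilzomib and 21.8 and 21.9 CPM with vehicle, a difference of -0.17 ± 0.08 (SE) on the log2 scale that was not called (edgeR adjusted p 0.0781). Per length Prim2 was at 9.60 and 10.01 FPKM with carfilzomib and 10.9 FPKM in both vehicle libraries.

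Both genes of lagging strand maturation fell. Fen1, the nuclease that trims RNA primers from the fragments, was at 19.97 and 19.4 CPM with carfilzomib and 35.8 and 42.0 CPM with vehicle. Lig1, the ligase that seals them, was at 61.2 and 59.5 CPM with carfilzomib and 110 and 108 CPM with vehicle. Their log2 fold changes were -0.98 ± 0.08 and -0.85 ± 0.05 (SE). The 2 vehicle libraries of Fen1 differed more than those of Lig1, and both lay above the treated libraries.

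All 4 genes of deoxynucleotide supply fell, and they included the most abundant members in counts. Rrm2, the small subunit of ribonucleotide reductase that limits the enzyme in S phase, was at 126 and 129 CPM with carfilzomib and 243 and 227 CPM with vehicle. Rrm1, the large subunit, was at 97.2 and 101 CPM with carfilzomib and 186 and 176 CPM with vehicle. The 2 subunits fell by nearly the same amount, with log2 fold changes of -0.88 ± 0.05 and -0.87 ± 0.05 (SE). Tk1, the thymidine kinase that also phosphorylates bromodeoxyuridine, was at 52.1 and 47.2 CPM with carfilzomib and 74.9 and 76.5 CPM with vehicle, with -0.61 ± 0.06 (SE). Tyms, thymidylate synthase, which makes thymidylate afresh, was at 30.7 and 29.4 CPM with carfilzomib and 34.9 and 35.9 CPM with vehicle. Its fall, -0.24 ± 0.07 (SE; edgeR adjusted p 0.00554), was the smallest of those called. That call was lost under DESeq2, with an adjusted p of 0.0994, and without carfilzomib replicate 2, with an edgeR adjusted p of 0.0749 and a log2 fold change of -0.20. Over the 11 alternatives its adjusted p ranged from 0.00444 to 0.0994.

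Of 24 other genes of nucleotide synthesis 12 fell, 6 rose and 6 were not called, and the median of the 24 was -0.19. Over all tested genes 30.1% were called lower and 30.6% higher. Dctpp1, a nucleotide pyrophosphatase, and Dctd, which feeds thymidylate synthesis, fell by 1.24 and 0.70 on the log2 scale. Samhd1, which breaks down deoxynucleotides, was at 18.4 and 19.3 CPM with carfilzomib and 8.78 and 8.07 CPM with vehicle, a log2 fold change of 1.16 ± 0.10 (SE). Rrm2b, the p53-inducible counterpart of Rrm2 in resting cells, was at 7.23 and 8.26 CPM with carfilzomib and 5.87 and 5.41 CPM with vehicle, higher by 0.46 ± 0.14 (SE) on the log2 scale (edgeR adjusted p 0.0121). That call was lost under DESeq2 and without vehicle replicate 2 or carfilzomib replicate 2, with log2 fold changes of 0.40 and 0.36 in the last 2 cases and adjusted p from 0.00771 to 0.154 over 11 alternatives. Rrm2b was chosen after its values were seen.

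The 3 genes that copy chromatin behind the fork fell. Chaf1b, a subunit of the histone chaperone CAF-1, was at 10.6 and 10.8 CPM with carfilzomib and 22.3 and 24.8 CPM with vehicle, a log2 fold change of -1.14 ± 0.09 (SE). Chaf1a, its largest subunit, was at 26.0 and 27.4 CPM with carfilzomib and 48.4 and 46.2 CPM with vehicle, with -0.82 ± 0.06 (SE). Uhrf1, which reads hemimethylated DNA and recruits the maintenance methyltransferase, was at 35.4 and 39.0 CPM with carfilzomib and 81.3 and 77.4 CPM with vehicle. It fell by 1.09 ± 0.07 (SE) on the log2 scale. The ASF1 chaperones that hand histones to CAF-1 went opposite ways. Asf1b, the form of proliferating cells, fell by 1.19 ± 0.08 and Asf1a rose by 0.82 ± 0.06 (SE). The ratio of Asf1a to Asf1b counts was 3.11 and 3.01 in the carfilzomib libraries and 0.775 and 0.742 in the vehicle libraries. Both were picked as movers in opposite directions, so the gap between these ratios follows from that choice. Counts are not adjusted for length. Per length Asf1a was at 17.2 and 18.25 FPKM with carfilzomib and 9.74 and 9.91 FPKM with vehicle. Asf1b was at 9.54 and 10.43 FPKM with carfilzomib and 21.6 and 23.0 FPKM with vehicle.

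**Figure D5:**
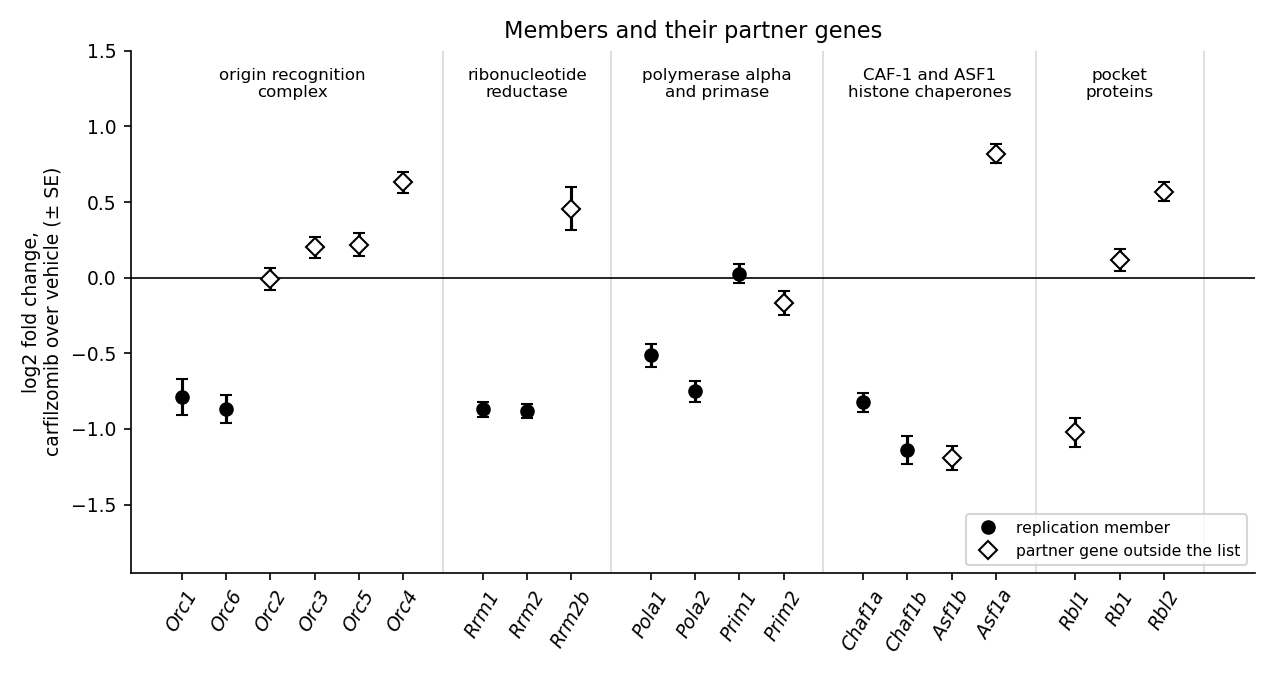
Log2 fold change, carfilzomib over vehicle, with its standard error, for members (filled circles) beside partner genes outside the 39 (open diamonds), in 5 groups of related genes. Orc1 and Orc6, Rrm1 and Rrm2, and Chaf1a and Chaf1b lie below 0, while Orc4 at 0.63, Asf1a at 0.82 and Rbl2 at 0.57 lie above it. The partners Asf1b at -1.19 and Rbl1 at -1.02 lie as low as members. The member Prim1 at 0.03 and the partner Orc2 at -0.01 lie near 0.

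Of 42 other genes of the fork and origin that were tested, 26 fell, 6 rose and 10 were not called, and their median was -0.44. Among them Ticrr, which helps CDC45 onto the ring, fell by 1.21 on the log2 scale. Rpa1 and Rpa2, which coat single-stranded DNA at the fork and were chosen after their values were seen, fell by 0.52 and 0.58. Rpa3, of the same complex and chosen likewise, was not called at -0.05, with a 95% interval from -0.28 to 0.18. The rises numbered 3 under DESeq2 and likewise when vehicle replicate 2 was left out, and 2 when carfilzomib replicate 1 was. The share called lower was 97.4% of the 39 members and 61.9% of the other fork and origin genes, against 30.1% of all tested genes. Both lists were chosen with earlier results of these data known, so these shares are a description and their difference was not tested.

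Genes that control E2F moved in both directions. Of 20 genes of the RB family, its E2F partners, the DREAM complex and the cyclins of S phase, 12 fell and 5 rose. The other 3 were not called, and the median of the 20 was -0.26. Among all tested genes 30.1% were called lower and 30.6% higher. The falls in this list numbered 9 both under DESeq2 and with library size alone, and the rises 4 and 5. Rbl1, a pocket protein that is itself an E2F target, was at 11.6 and 11.5 CPM with carfilzomib and 25.0 and 21.9 CPM with vehicle. Rbl2, the pocket protein of resting cells, was at 61.5 and 66.4 CPM with carfilzomib and 43.9 and 42.3 CPM with vehicle. The first fell by 1.02 ± 0.10 and the second rose by 0.57 ± 0.06 (SE) on the log2 scale, and Rb1 did not pass at 0.12, with a 95% interval from -0.03 to 0.27. Without vehicle replicate 1 Rb1 was at 0.21, with an edgeR adjusted p of 0.0347, the lowest in a range up to 0.760 over 11 alternatives. Mybl2, an activator of late cell cycle genes, fell by 1.24, and the DREAM core split. Its subunits Lin37 and Lin54 rose by 0.84 and 0.51, Lin9 fell by 0.66 ± 0.11 (SE), and Rbbp4 was not called at -0.03, with a 95% interval from -0.13 to 0.06. Lin52 rose by 0.30 ± 0.09 (SE; edgeR adjusted p 0.00984), a call lost under DESeq2 and without carfilzomib replicate 2, where it was at 0.28. The S-phase cyclins Ccne1, Ccne2 and Ccna2 and their kinase Cdk2 fell by 0.80, 0.84, 0.96 and 0.71. Tfdp1 and Tfdp2, which pair with E2F proteins on DNA, fell by 0.26 and 0.46.

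Genes that limit licensing to once in a cycle moved in both directions too. Of 13 tested, 6 fell, 5 rose and 2 were not called, and their median was -0.03, against 0.00 over all tested genes. The share called lower was 46.2%, while of all tested genes 30.1% were called lower and 30.6% higher. Dtl, the receptor through which CDT1 is marked for destruction, was at 17.8 and 17.5 CPM with carfilzomib and 36.5 and 35.1 CPM with vehicle, and fell by 1.02 ± 0.07 (SE). Skp2, the other receptor for CDT1, fell by 0.46, Fbxo5, an inhibitor of the mitotic ubiquitin ligase, by 0.83, and Ccnf by 0.74. Of the 6 common subunits of these ligases in the list, 5 rose: the adaptor Skp1 by 0.85, the RING subunit Rbx1 by 0.75, and the scaffolds Cul1 by 0.51, Cul4b by 0.45 and Cul4a by 0.26. Ddb1, the adaptor that joins DTL to the CUL4 scaffolds, was not called at -0.03, with a 95% interval from -0.11 to 0.06. Gmnn, geminin, the protein that holds CDT1 inactive, was at 19.5 and 20.2 CPM with carfilzomib and 17.9 and 18.7 CPM with vehicle. Its difference of 0.12 ± 0.08 (SE) was not called (edgeR adjusted p 0.229), beside a fall of 1.29 for Cdt1.

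The 20 genes of the mitosis list all fell, between -1.18 and -0.37 on the log2 scale, and their median was -0.78. Among all tested genes 30.1% were called lower. Cdk1, the mitotic kinase, was at 38.6 and 38.0 CPM with carfilzomib and 88.0 and 85.4 CPM with vehicle, and Foxm1, a transcription factor of that phase, fell by 1.12.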

How the data were processed

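RNA-seq of 4 libraries was used, grouped by the sample titles; columns with control in their name were matched to the vehicle libraries by number, since the labels hold no other control. Per the file headers, the authors deposited estimated counts without normalisation, and FPKM. Counts are not whole in at least 1 library (tolerance 1e-06) for 35.1% of genes. The submitters' processing notes name build Rnor_6.0 and, in no stated role, featureCounts 1.6.0, HISAT, Bowtie2, DESeq2, R 3.3.2, cutadapt 2.0 and FastQC 0.11.8. The authors' deposited table gives log2 fold changes, p-values and q-values. Of the expression values, 10 columns went unused. A few genes that the naming rule would give are not reported here.

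Counts were rounded and tested with edgeR 4.0.16 (R 4.3.3): filterByExpr (minimum count 10, total 15), TMM factors (0.987 to 1.01), and the robust quasi-likelihood test of carfilzomib against vehicle without a block, Benjamini-Hochberg adjusted over 14519 genes at 0.05. The common biological coefficient of variation was 0.0465. The standard error is the absolute log2 fold change over the square root of F, and 95% intervals use the fit's degrees of freedom. Replicates did not agree within sampling noise: chi-square over its degrees of freedom was 3.08 between the carfilzomib libraries and 3.42 between the vehicle libraries. The fit was tested on simulated data.

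The members and gene lists were chosen with earlier results of these data known. Besides all members, the text names from each list the called genes that moved most, 2 in the direction most of the list took and 1 in the opposite one, at a mean of 1 CPM or more, and any gene of the RB and licensing lists. Alternatives were DESeq2 1.42.0, voom of limma 3.58.1, RLE factors, library size alone, no filter, a stricter filter (1 CPM in 2 libraries, total 50), the replicate block, each library left out, and genes with whole counts only. RefSeq gene and promoter tables are of build GRCr8.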

Additional observations from a re-analysis of the deposited data

How the results depend on the processing

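The count of replication members lower with carfilzomib was 38 or 37 under 11 alternatives, and 30 of 30 over genes with whole counts. It was 37, Tyms being lost, under DESeq2 and with carfilzomib replicate 2 left out, and 0 members were higher under any of the 12. The members' median log2 fold change lay between -0.85 and -0.81. The count of genes changed, 8812, was 6489 under DESeq2 and 7360 to 7974 with 1 library left out. Of 429 member values under alternatives 426 kept their direction and their side of the threshold, and 2, both of Tyms, kept only their direction. The sign turned for 5 genes that were not called. Leaving out 1 library put Prim1 between -0.029 and 0.084, Orc2 between -0.080 and 0.063, E2f3 between -0.020 and 0.13, Ddb1 between -0.050 and 0.00071 and Rbbp4 between -0.061 and 0.0016, and library size alone put Orc2 at 0.024, Ddb1 at 0.0080 and Rbbp4 at 0.0011. The cause was not tested. A fit without 1 library assumes that the lone library of its group varies like the others. The replicate numbers are shared between groups, but nothing says that they pair the libraries, and the deviations of same-numbered libraries had a correlation of -0.02. With the replicate number as a block 8229 genes and 38 members passed. Depth limits the lowest members: E2f2 had 55 counts in carfilzomib replicate 1.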

Other observations

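Genes of the replication checkpoint and of fork repair, which act when forks stall, mostly fell. Of 20 tested, 12 fell, 4 rose and 4 were not called, and their median was -0.60 on the log2 scale. Beside them, 30.1% of all tested genes were called lower and 30.6% higher. Exo1, a nuclease of DNA repair, fell by 1.22 on the log2 scale. Rad17, which loads the checkpoint clamp, was at 39.9 and 42.0 CPM with carfilzomib and 28.8 and 24.8 CPM with vehicle, and rose by 0.61 ± 0.08 (SE). The clamp subunits went different ways, Rad9a falling by 0.75 and Hus1 rising by 0.25. Rad1, also a clamp subunit, was not called at -0.12, with a 95% interval from -0.38 to 0.13. The rise of Hus1 was lost under DESeq2 and without carfilzomib replicate 1, where it was at 0.22. Clspn and Topbp1, which help to activate the checkpoint kinases, fell by 1.16 and 0.53. The kinase Chek1 fell by 0.26, a call lost under DESeq2 and without vehicle replicate 2 or either carfilzomib library, with values from -0.27 to -0.19. Rad9a, Hus1, Rad1, Clspn, Topbp1, Chek1 and the kinases Atr and Atm were chosen after their values were seen. Atr and Atm rose by 0.40 ± 0.07 and 0.28 ± 0.06 (SE), with edgeR adjusted p of 1.08e-04 and 0.00107.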
